A study of Mus musculus with 45 samples.

Results

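The 9 genes described here are 8 enzymes of the Krebs cycle and its cytosolic counterparts, Idh1, Idh2, Idh3a, Aco1, Cs, Ogdh, Fh1 and Mdh2, and Irg1, the enzyme that makes itaconate from a cycle intermediate. They were picked by name from the gene identifiers and not by a threshold on their values, with earlier results of these data known. They are 9 of 23420 genes in the files, and all 9 were among the 10287 genes with enough counts to be tested. RNA was sequenced from 45 libraries of mouse C57BL/6 dendritic cells grown from bone marrow with 20 ng/ml GM-CSF and sorted live as CD11c-high cells, 5 biological replicates in each of 9 groups. The KO groups carried Bat3 fl/fl CD11c Cre, so that the floxed gene, Bag6 under its current name, is deleted where the CD11c promoter drives the recombinase. They received LPS (the bacterial ligand of Toll-like receptor 4), 4µ8C (an inhibitor of the IRE1 RNase) or 4PBA (4-phenylbutyrate, a chemical chaperone and histone deacetylase inhibitor), or were kept in medium, for 8 h. The WT groups were wild type and received the same, with a further group given rapamycin, an inhibitor of mTORC1. The labels name no vehicle group, do not say whether the WT mice carried Cre or floxed alleles, and leave it unstated if cells given 4µ8C, 4PBA or rapamycin also received LPS.

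The Krebs cycle oxidises acetyl groups in mitochondria. Citrate synthase makes citrate, aconitase and isocitrate dehydrogenase turn it into 2-oxoglutarate, and the 2-oxoglutarate dehydrogenase complex, succinate dehydrogenase, fumarase and malate dehydrogenase return the carbon to oxaloacetate. In macrophages and dendritic cells that sense bacterial products, Irg1 diverts cis-aconitate, the intermediate of the aconitase reaction, into itaconate, which inhibits succinate dehydrogenase and dampens inflammatory genes. Low isocitrate dehydrogenase flux with accumulation of citrate and itaconate is a known feature of LPS-activated mouse macrophages.

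Depth ran from 1509219 to 4737736 expected counts per library. Bag6 had lower means in KO cells, at 9.2 CPM in medium, 9.26 CPM with LPS, 9.73 CPM with 4µ8C and 7.51 CPM with 4PBA, against 14.4, 13.9, 12.7 and 14.6 CPM in WT cells under the same treatments, and no difference passed the test across all genes (adjusted p 0.071 to 0.52, edgeR). The KO replicate 4 library held the highest Bag6 of its group under all 4 treatments. WT 4µ8C replicate 4 was the shallowest library, and its log2 CPM correlated with the mean of its group at 0.908, against 0.965 or more in the other 44 libraries. Each library has a letter and number code in the labels that may mark a plate well, which the labels do not state. Here, codes with the letter A or the number 1 or 12 were classed as outer and all others as inner. All WT medium and WT LPS libraries and none of the KO medium, KO 4PBA or WT 4PBA libraries had an outer code. In code order all WT libraries (A1 to E2) came before all KO libraries (E3 to G8). Code order and genotype can therefore not be told apart under any treatment. Both kinds of code occurred only in KO LPS, KO 4µ8C, WT 4µ8C and WT rapamycin, with 1, 2, 2 and 2 outer libraries. The code effect is estimated within these groups and carried over to the others, and WT 4µ8C replicate 4 is among the outer libraries. With groups held equal, 417 of 10287 genes differed between outer and inner codes, 376 of them lower in outer codes. None of the 9 genes was among them, the nearest being Idh3a (log2 fold change outer against inner 0.42 ± 0.20 SE, adjusted p = 0.29). Of the dendritic cell markers, Cd74, H2-Ab1, H2-Aa and Itgax were present in every library and Flt3, Dpp4 and Cd209a were at or near 0. The macrophage markers Emr1 and Csf1r were at 253 CPM or more in every library, and the sum of the macrophage list differed between treatments, as given with the LPS results. In bulk RNA, fewer cells of a type and less RNA per cell cannot be told apart.

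A list of 10 LPS-induced genes, among them Tnf, Il6 and Nos2, served to check stimulation. Of these, 9 rose and 0 fell in KO LPS, 10 rose in KO 4µ8C and 9 rose in KO 4PBA cells against KO medium. Against WT medium, 10 rose in WT LPS, 10 in WT 4µ8C and 9 in WT 4PBA cells, whereas with rapamycin 9 fell and 0 rose. The 4µ8C and 4PBA groups were therefore compared both with medium and with LPS.

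Irg1 was by far the most abundant of the 9 transcripts per length. In WT medium it averaged 1872 ± 321 TPM (SD, n = 5), where TPM is the deposited length-scaled value. Mdh2 followed at 258 ± 8.09 TPM, Idh1 at 245 ± 57.5 TPM and Cs at 121 ± 9.11 TPM. Ogdh, Fh1, Idh2, Aco1 and Idh3a lay between 30.9 and 10.7 TPM. With LPS the order changed, because Idh1 averaged 14.4 TPM in KO LPS and 21.8 TPM in WT LPS, below Ogdh at 21.9 TPM in KO LPS and 25.4 TPM in WT LPS. All further levels are CPM, counts scaled for library depth and composition, which compare groups but not genes.

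**Figure D1:**
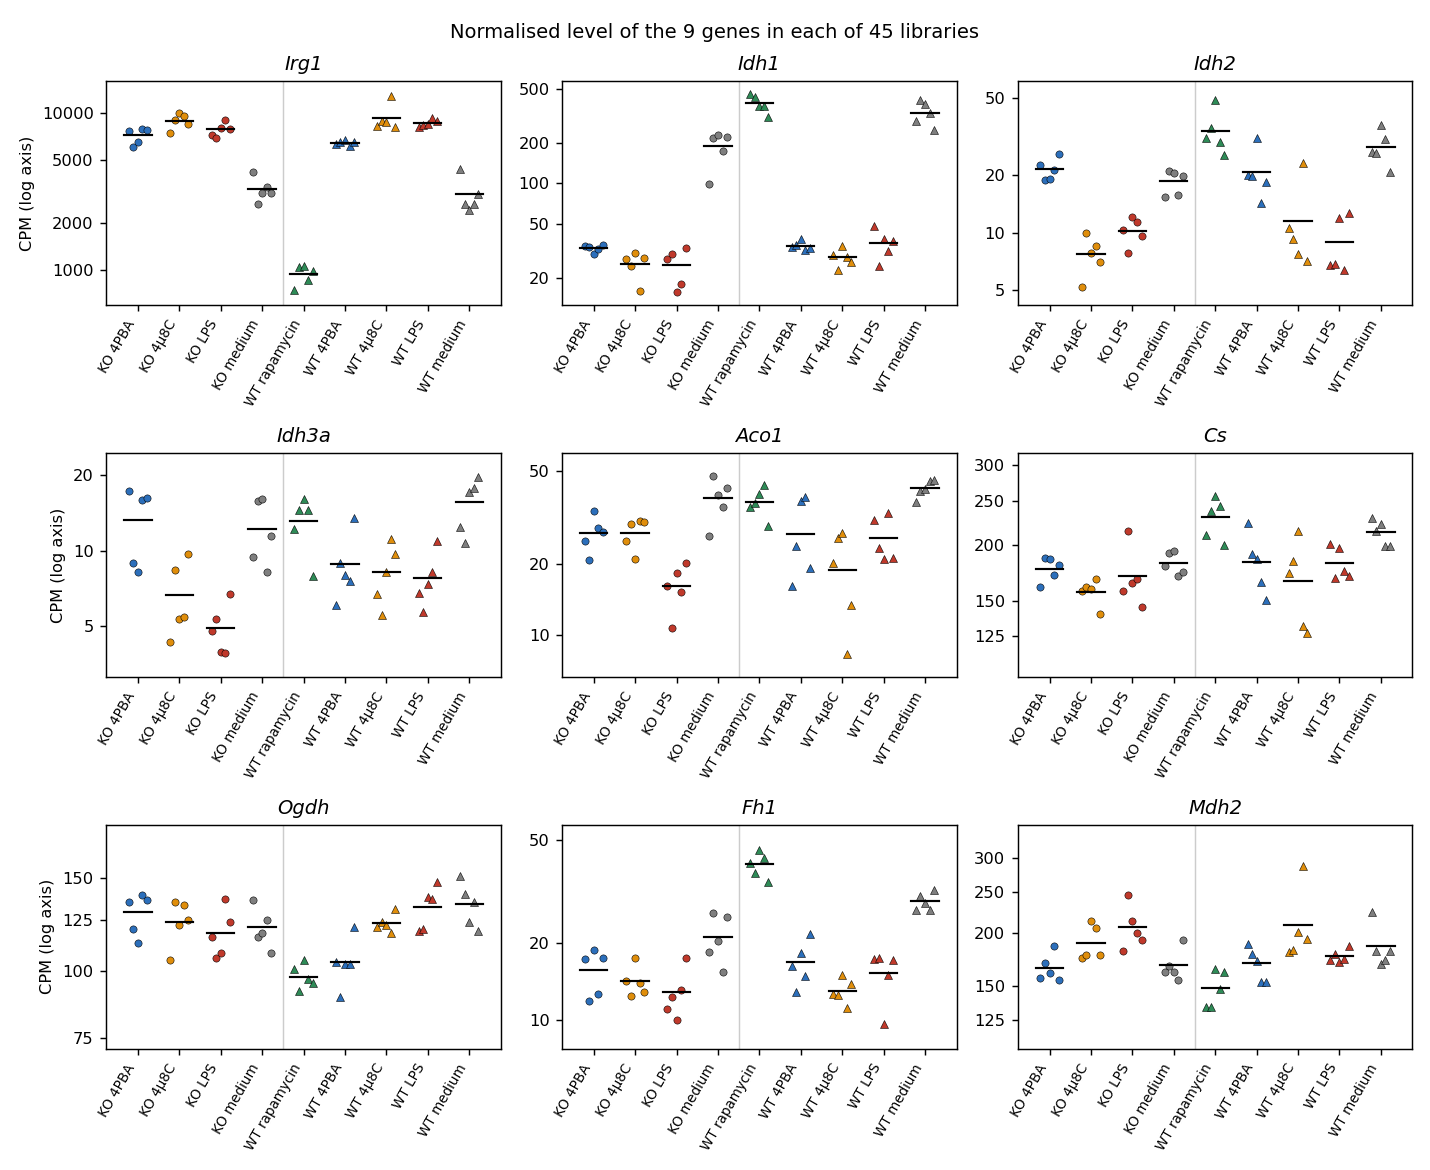
CPM (log axis) of each gene in each of 45 libraries, circles for KO and triangles for WT, with a bar at the mean of the 5 libraries of a group. Irg1 is at 6099 CPM or more in every LPS, 4µ8C and 4PBA library and Idh1 is below 50 CPM in all of them, while Ogdh and Mdh2 stay within narrow bands.

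Against medium, most of the 9 genes changed with LPS, and most changes were falls. In KO LPS cells 2 of 9 rose and 5 fell, where 35.2% of all genes tested were called, and in WT LPS cells 1 rose and 5 fell, where 40.1% were called. In KO 4µ8C cells 1 rose and 4 fell (32.6% of all genes called), and in WT 4µ8C cells 1 rose and 6 fell (40.1% called). In KO 4PBA cells 1 rose and 2 fell (33.2% called), and in WT 4PBA cells 1 rose and 5 fell (43.7% called). In WT rapamycin cells 1 rose and 3 fell (23.2% called). The median log2 fold change of the 9 genes was -0.70 in KO LPS and -0.70 in WT LPS cells, while that of all genes tested was -0.08 and -0.07. The corresponding medians of the 9 genes were -0.46 in KO 4µ8C, -0.02 in KO 4PBA, -0.96 in WT 4µ8C, -0.45 in WT 4PBA and -0.19 in WT rapamycin cells, where those of all genes tested lay between -0.07 and -0.01. All comparisons within a genotype share the same medium libraries. Summed macrophage markers, 9 of 10 listed genes having a row and none at 0 throughout, also differed from medium. In KO cells they were 4818 to 6477 CPM with LPS, 4340 to 5119 CPM with 4µ8C and 2929 to 4913 CPM with 4PBA, against 2437 to 3025 CPM in medium. In WT cells they were 4095 to 4808 CPM with LPS, 4107 to 5100 CPM with 4µ8C, 4347 to 5255 CPM with 4PBA and 2755 to 3460 CPM with rapamycin, against 2686 to 3823 CPM in medium. The LPS and medium ranges did not overlap in either genotype. Within the list the genes went different ways. Cd14, a co-receptor for LPS, was at 2664 to 4618 CPM in KO LPS, against 447 to 1086 CPM in KO medium, and at 1490 to 2763 CPM in WT LPS, against 457 to 882 CPM in WT medium. Csf1r, the receptor for M-CSF, was at 567 to 800 CPM in KO LPS, against 883 to 1240 CPM in KO medium, and at 571 to 773 CPM in WT LPS, against 978 to 1390 CPM in WT medium. The part of these transcripts in the changes of the 9 genes was not tested.

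Irg1, the cis-aconitate decarboxylase, was higher with LPS, 4µ8C and 4PBA and lower with rapamycin. In KO cells its values were 7311, 6986, 8107, 9098 and 7951 CPM with LPS, against 4189, 2643, 3111, 3360 and 3071 CPM in medium. The WT values were 8186, 8419, 8476, 9380 and 8981 CPM with LPS, against 4402, 2623, 2410, 2635 and 3048 CPM in medium. Every LPS library lay above every medium library, and the transcript already stood at 2410 CPM or more in medium, highest in replicate 1 of both genotypes. The log2 fold change with LPS was 1.27 ± 0.14 in KO cells (SE, adjusted p = 1.9e-10) and 1.52 ± 0.14 in WT cells (adjusted p = 8.5e-13, edgeR), 2.41-fold and 2.87-fold. With 4µ8C it had 7497, 9066, 10060, 9630 and 8491 CPM in KO cells and 8245, 8857, 8789, 12861 and 8194 CPM in WT cells, with log2 fold changes against medium of 1.45 ± 0.14 in KO and 1.63 ± 0.14 in WT cells (1.49 in WT without the library at 12861 CPM). With 4PBA it had 7720, 6099, 6562, 7888 and 7816 CPM in KO cells and 6321, 6546, 6699, 6133 and 6525 CPM in WT cells, with log2 fold changes against medium of 1.14 ± 0.14 and 1.09 ± 0.14. Neither set overlapped the medium libraries of its genotype. With rapamycin Irg1 had 740, 1040, 1056, 863 and 978 CPM, below every other library of the series (log2 fold change against WT medium -1.69 ± 0.14, adjusted p = 4.3e-13, 3.23-fold lower). The stimulation list had its lowest mean log2 CPM in the same libraries, 4.52 to 5.71 with rapamycin, against 6.42 to 7.48 in WT medium. By group mean the order ran from WT 4µ8C, KO 4µ8C, WT LPS, KO LPS and KO 4PBA to WT 4PBA, each overlapping the next, then KO medium, WT medium and WT rapamycin. The libraries of WT 4PBA did not overlap those of KO medium, and those of WT medium did not overlap those of WT rapamycin.

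The stretches upstream of the Irg1 and Idh1 starts are shown because these genes made the largest moves in opposite directions. Sequences are the 250 bases before each transcription start in RefSeq for GRCm38.p6, written along the gene's strand, and 8 of the 9 genes, all but Idh3a, had an entry. Irg1, listed there as Acod1, lies at chr14:103046762-103047011 on the plus strand. Idh1 has 2 listed starts on the minus strand, start 1 at chr1:65186480-65186729 and start 2 at chr1:65179143-65179392. Capitals mark a κB-type motif and a TATA box in Irg1, and GC boxes on either strand in Idh1.
Irg1: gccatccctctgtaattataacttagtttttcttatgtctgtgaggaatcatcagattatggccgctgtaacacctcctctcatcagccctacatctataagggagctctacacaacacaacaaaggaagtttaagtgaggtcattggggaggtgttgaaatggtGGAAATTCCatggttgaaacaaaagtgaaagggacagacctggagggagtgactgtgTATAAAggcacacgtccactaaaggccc
Idh1 start 1: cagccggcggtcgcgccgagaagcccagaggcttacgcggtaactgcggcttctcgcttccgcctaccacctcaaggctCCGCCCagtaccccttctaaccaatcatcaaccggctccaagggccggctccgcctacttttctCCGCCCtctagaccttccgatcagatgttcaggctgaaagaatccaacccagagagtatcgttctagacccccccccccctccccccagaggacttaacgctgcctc
Idh1 start 2: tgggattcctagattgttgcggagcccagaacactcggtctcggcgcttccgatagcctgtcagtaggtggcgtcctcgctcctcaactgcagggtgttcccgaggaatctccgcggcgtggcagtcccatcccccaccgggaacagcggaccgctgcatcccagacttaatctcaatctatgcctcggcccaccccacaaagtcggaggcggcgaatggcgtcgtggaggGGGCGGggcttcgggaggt
Motifs were chosen after these sequences had been read, and were searched on both strands: GGAAATTCC for the κB-type motif, TATAAA for the core promoter motif, GGGCGG as the sequence of the GC box and the core of the interferon-stimulated response element (ISRE). The Irg1 window held GGAAATTCC 85 bases before the start and TATAAA 28 bases before it. Of 32851 RefSeq mouse promoter windows of this length, 0.286% held GGAAATTCC, 12.4% held TATAAA, 32.7% held GGGCGG and 2.98% held the ISRE core. No window of the other 7 genes held GGAAATTCC or TATAAA, and no window of the 8 held the ISRE core. GGGCGG was not particular to Idh1, as each of these other 7 genes held it in at least 1 window, while Irg1 did not. Irg1 had 2 CpG pairs in the window, and 29% of all windows had 2 or fewer, whereas the other 7 genes had 9 or more, which 40.3% of all windows had. These are letter matches and say nothing of binding.

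Idh1, the NADP-dependent isocitrate dehydrogenase of the cytosol and a source of NADPH, made the largest change of the 9 genes with LPS. In KO cells it had 27.6, 30, 15.7, 17.9 and 33.2 CPM with LPS, against 99.8, 219, 228, 174 and 220 CPM in medium. WT cells had 48.2, 24.3, 38.7, 31.4 and 37.2 CPM with LPS, against 292, 412, 387, 335 and 248 CPM in medium. No LPS library reached the lowest medium library. The fall was 7.52-fold in KO cells (log2 fold change -2.91 ± 0.19, adjusted p = 3.2e-16) and 9.37-fold in WT cells (-3.23 ± 0.19, adjusted p = 3.8e-18, edgeR). With 4µ8C the values were 27.7, 24.6, 30.7, 15.9 and 27.9 CPM in KO and 29.5, 22.9, 34.4, 28.7 and 26.4 CPM in WT cells. With 4PBA they were 34.5, 33.8, 30, 32.6 and 35.3 CPM in KO and 33.7, 35.0, 38.8, 32.3 and 33 CPM in WT cells. Both inhibitor groups thus sat with the LPS group in either genotype, and log2 fold changes against medium were -2.89 ± 0.19 with 4µ8C and -2.50 ± 0.19 with 4PBA in KO cells, and -3.57 ± 0.20 and -3.28 ± 0.19 in WT cells. Rapamycin libraries had 459, 439, 375, 376 and 309 CPM, overlapping WT medium (0.23 ± 0.17, adjusted p = 0.37). Within outer codes alone, 5 WT LPS and 5 WT medium libraries differed by -3.21 in mean log2 CPM. Within inner codes, 4 KO LPS and 5 KO medium libraries differed by -3.00.

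Idh2, the mitochondrial NADP-dependent isocitrate dehydrogenase, fell with LPS and 4µ8C but stood higher with 4PBA. In KO cells it had 10.3, 7.81, 12.1, 11.3 and 9.58 CPM with LPS, against 15.4, 20.9, 20.5, 15.7 and 19.8 CPM in medium (log2 fold change -0.84 ± 0.23, adjusted p = 0.0031). WT cells had 6.81, 6.83, 11.9, 6.36 and 12.6 CPM with LPS, against 26.2, 25.9, 36.4, 30.9 and 20.8 CPM in medium (-1.63 ± 0.23, adjusted p = 1.1e-07, edgeR). LPS and medium libraries did not overlap in either genotype. With 4µ8C, values were 5.23, 10, 7.80, 8.48 and 7.06 CPM in KO and 10.5, 9.22, 7.75, 23.1 and 7.07 CPM in WT cells. The 23.1 CPM belongs to WT 4µ8C replicate 4, without which the log2 fold change of WT 4µ8C against medium was -1.69 in place of -1.40 ± 0.23. With 4PBA, values were 22.4, 18.9, 19.0, 21.3 and 25.7 CPM in KO and 19.9, 19.6, 31.2, 14.3 and 18.4 CPM in WT cells, overlapping medium in both genotypes. Against medium the change with 4PBA was 0.22 ± 0.21 in KO cells (adjusted p = 0.45). In WT cells it was -0.45 ± 0.21 (adjusted p = 0.073), and with the replicate number as a block the adjusted p was 0.024.

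Idh3a, the catalytic alpha subunit of the NAD-dependent enzyme that works inside the cycle, was among the less abundant members. In KO cells it had 4.78, 5.34, 3.93, 3.92 and 6.73 CPM with LPS, against 9.43, 15.8, 16.1, 8.21 and 11.5 CPM in medium, with no overlap (log2 fold change -1.28 ± 0.27, adjusted p = 0.00019). In WT cells it had 6.81, 5.69, 7.39, 8.23 and 10.9 CPM with LPS, against 12.5, 10.7, 17.1, 17.9 and 19.7 CPM in medium, where the highest LPS library passed the lowest medium library (-0.97 ± 0.26, adjusted p = 0.002, edgeR). It fell with 4µ8C by 0.86 ± 0.26 on the log2 scale in KO and by 0.96 ± 0.26 in WT cells. With 4PBA it had 17.3, 8.94, 8.26, 16.0 and 16.2 CPM in KO cells, spread over the range of KO medium (0.13 ± 0.24, adjusted p = 0.72). In WT 4PBA cells it had 6.07, 8.97, 8.02, 7.58 and 13.5 CPM (-0.80 ± 0.25, adjusted p = 0.0072). That last value was -0.38 with adjusted p = 0.39 when the outer or inner code was a term. All WT medium codes were outer and all WT 4PBA codes inner, so code position and treatment cannot be told apart there.

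Aco1, the cytosolic aconitase that binds iron-responsive RNA elements when it lacks its iron-sulphur cluster, fell with LPS in both genotypes. In KO cells it had 16.2, 10.7, 18.4, 15.3 and 20.2 CPM with LPS, against 26.3, 47.6, 39.4, 35.1 and 42.1 CPM in medium (log2 fold change -1.21 ± 0.21, adjusted p = 6.9e-06). WT cells had 30.9, 23.5, 21.0, 32.9 and 21.3 CPM with LPS, against 36.7, 41.1, 41.7, 45.1 and 45.7 CPM in medium (-0.70 ± 0.20, adjusted p = 0.0044, edgeR). Neither pair of groups overlapped. With 4µ8C it ran from 21.0 to 30.5 CPM in KO cells (-0.46 ± 0.20, adjusted p = 0.067, and 0.023 with the replicate block). In WT 4µ8C cells it ran from 8.32 to 27.1 CPM (-1.10 ± 0.21, adjusted p = 3.1e-05, and -0.97 without replicate 4). With 4PBA it ran from 20.9 to 33.6 CPM in KO cells (-0.48 ± 0.20, adjusted p = 0.056, and 0.011 with the replicate block) and from 16.2 to 38.5 CPM in WT cells (-0.65 ± 0.20, adjusted p = 0.0063).

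Cs, citrate synthase, which makes the citrate that enters the cycle, moved little. It ran from 127 to 256 CPM over all 45 libraries. Against medium its log2 fold change was -0.10 ± 0.12 with LPS, -0.21 ± 0.12 with 4µ8C and -0.04 ± 0.12 with 4PBA in KO cells, none called. In WT cells it was -0.23 ± 0.12 with LPS (adjusted p = 0.12), -0.35 ± 0.12 with 4µ8C (adjusted p = 0.014, and 0.072 without WT 4µ8C replicate 5) and -0.22 ± 0.12 with 4PBA (adjusted p = 0.13, and 0.041 with the replicate block).

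Fh1, fumarase, fell with LPS. In KO cells it had 11, 12.3, 9.97, 13.1 and 17.4 CPM with LPS, against 18.4, 26.1, 20.3, 15.4 and 25.2 CPM in medium (log2 fold change -0.70 ± 0.17, adjusted p = 0.0011), where the highest LPS library overlapped medium. In WT cells it had 17.3, 17.5, 9.67, 15.0 and 17.1 CPM with LPS, against 26.7, 30.4, 28.4, 26.9 and 32.1 CPM in medium, with no overlap (-0.90 ± 0.17, adjusted p = 1.9e-05, edgeR). Against medium it fell with 4µ8C by 0.57 ± 0.17 on the log2 scale in KO and by 1.14 ± 0.17 in WT cells. With 4PBA it fell by 0.43 ± 0.17 in KO cells (adjusted p = 0.04) and by 0.77 ± 0.16 in WT cells (adjusted p = 0.00011). The KO 4PBA call was lost with the replicate block (adjusted p = 0.059) and in 5 of 10 fits that left out 1 library, KO medium replicates 2, 3 and 5 and KO 4PBA replicates 2 and 4, with log2 fold changes as small as -0.35. With rapamycin it had 40.7, 37.4, 46.0, 42.8 and 34.5 CPM, above every other library of the series (0.48 ± 0.15 against WT medium, adjusted p = 0.016).

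Ogdh, the first enzyme of the 2-oxoglutarate dehydrogenase complex, and Mdh2, the mitochondrial malate dehydrogenase, kept narrow ranges. Ogdh ran from 89.3 to 151 CPM and Mdh2 from 134 to 287 CPM over all libraries. With LPS the log2 fold change of Ogdh was -0.03 ± 0.10 in KO and -0.02 ± 0.10 in WT cells. It was lower than in medium in WT 4PBA cells (-0.36 ± 0.10, adjusted p = 0.003, and 0.081 with the code term) and in WT rapamycin cells (-0.45 ± 0.10, adjusted p = 0.00051), whose 91.8 to 105 CPM lay below all WT medium libraries at 119 to 151 CPM. Mdh2 had 182, 245, 213, 200 and 193 CPM in KO LPS, against 162, 167, 162, 155 and 193 CPM in KO medium cells (0.30 ± 0.11, adjusted p = 0.031, edgeR). This call was lost in 6 of 10 fits that left out 1 library, KO medium replicates 1 to 4 and KO LPS replicates 2 and 3, with adjusted p up to 0.12. In WT LPS cells Mdh2 differed from medium by -0.07 ± 0.11.

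**Figure D2:**
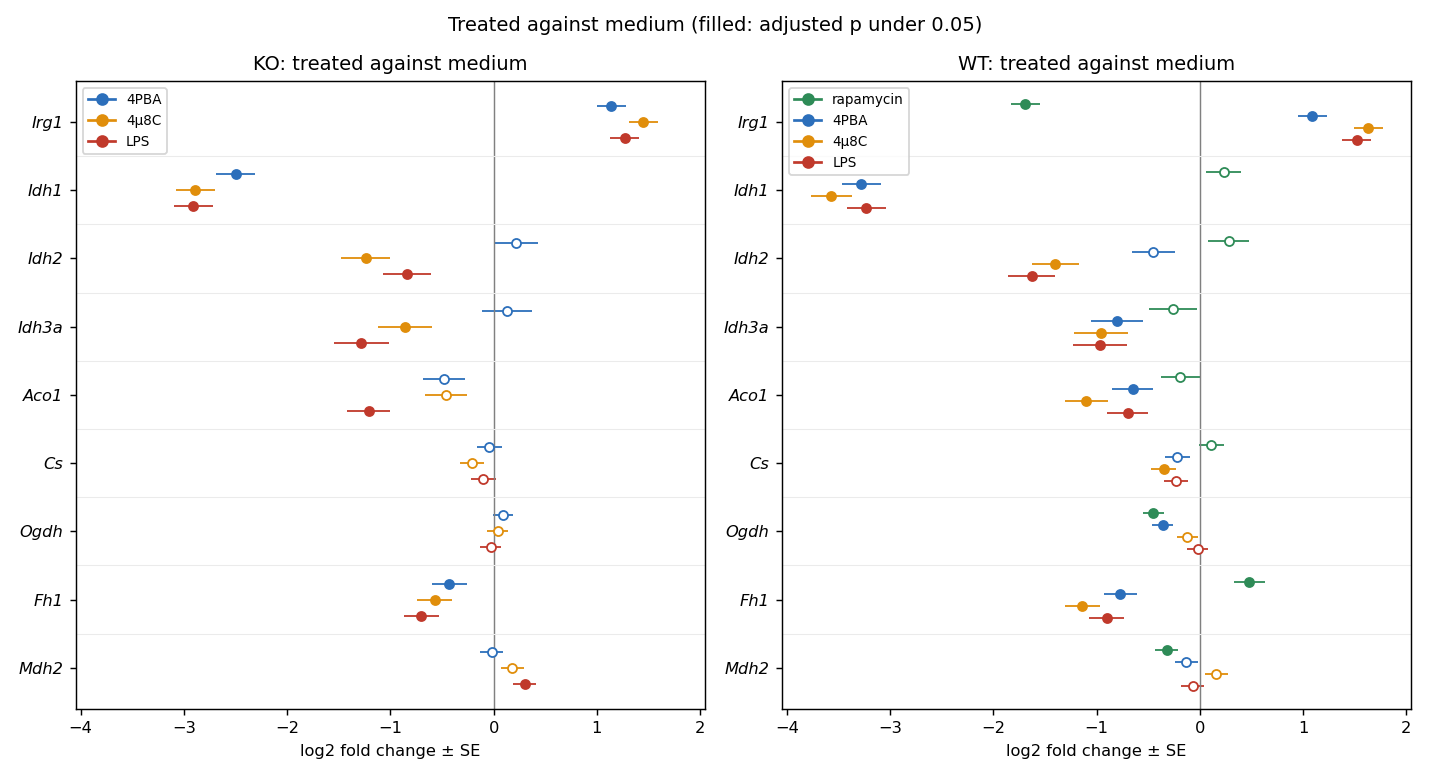
Log2 fold change (± SE) of each gene against medium of the same genotype, KO on the left and WT on the right, filled where the adjusted p was under 0.05. Irg1 lies right of 0 with LPS, 4µ8C and 4PBA and left of it with rapamycin, Idh1 lies between -2.50 and -3.57 with LPS, 4µ8C and 4PBA, and Idh2 and Idh3a with 4PBA in KO cells lie near 0.

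The inhibitor groups were next set against LPS of the same genotype. With 4µ8C, 0 of the 9 genes were called in KO cells, where 0.0292% of all genes were called, and 0 in WT cells, where 0.204% were called (edgeR, with 1 of 9 at an unadjusted p under 0.05 in each). DESeq2 called 0 in both. The nearest was Aco1 in KO cells, 0.75 ± 0.21 on the log2 scale with adjusted p = 0.23, although its 21.0 to 30.5 CPM with 4µ8C did not overlap the 10.7 to 20.2 CPM with LPS.

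With 4PBA, 3 of 9 rose and 1 fell in KO cells against KO LPS (24.4% of all genes called), and 1 rose and 2 fell in WT cells against WT LPS (27% called). Idh2 was higher with 4PBA in both genotypes, by 1.06 ± 0.23 in KO cells (adjusted p = 0.00045) and 1.18 ± 0.24 in WT cells (adjusted p = 0.00017), 2.09-fold and 2.27-fold, with no overlap between 4PBA and LPS libraries. Idh3a was 2.64-fold higher in KO 4PBA cells (1.40 ± 0.27, adjusted p = 0.00012), without overlap, and 0.17 ± 0.27 higher in WT 4PBA cells (adjusted p = 0.68). Aco1 was 0.73 ± 0.21 higher in KO 4PBA cells (adjusted p = 0.0088), also without overlap, and 0.05 ± 0.21 in WT 4PBA cells (adjusted p = 0.88). The difference between genotypes in these 4PBA against LPS changes was not tested. Idh1 was 0.41 ± 0.20 higher in KO 4PBA cells (adjusted p = 0.13, and 0.46 with adjusted p = 0.021 under the replicate block). Mdh2 fell by 0.31 ± 0.11 in KO 4PBA cells (adjusted p = 0.032), a call lost in 5 of 10 fits that left out 1 library (KO LPS replicates 2 and 3, KO 4PBA replicates 1, 3 and 5), with adjusted p up to 0.13. In WT 4PBA cells Irg1 fell by 0.43 ± 0.14 (adjusted p = 0.014) and Ogdh by 0.34 ± 0.10 (adjusted p = 0.0086). With the code term the WT values were -0.29 for Irg1 (adjusted p = 0.26), -0.27 for Ogdh (adjusted p = 0.14) and 1.49 for Idh2 (adjusted p = 0.00028). All WT LPS codes were outer and all WT 4PBA codes inner, so code position and treatment cannot be told apart within these groups.

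**Figure D3:**
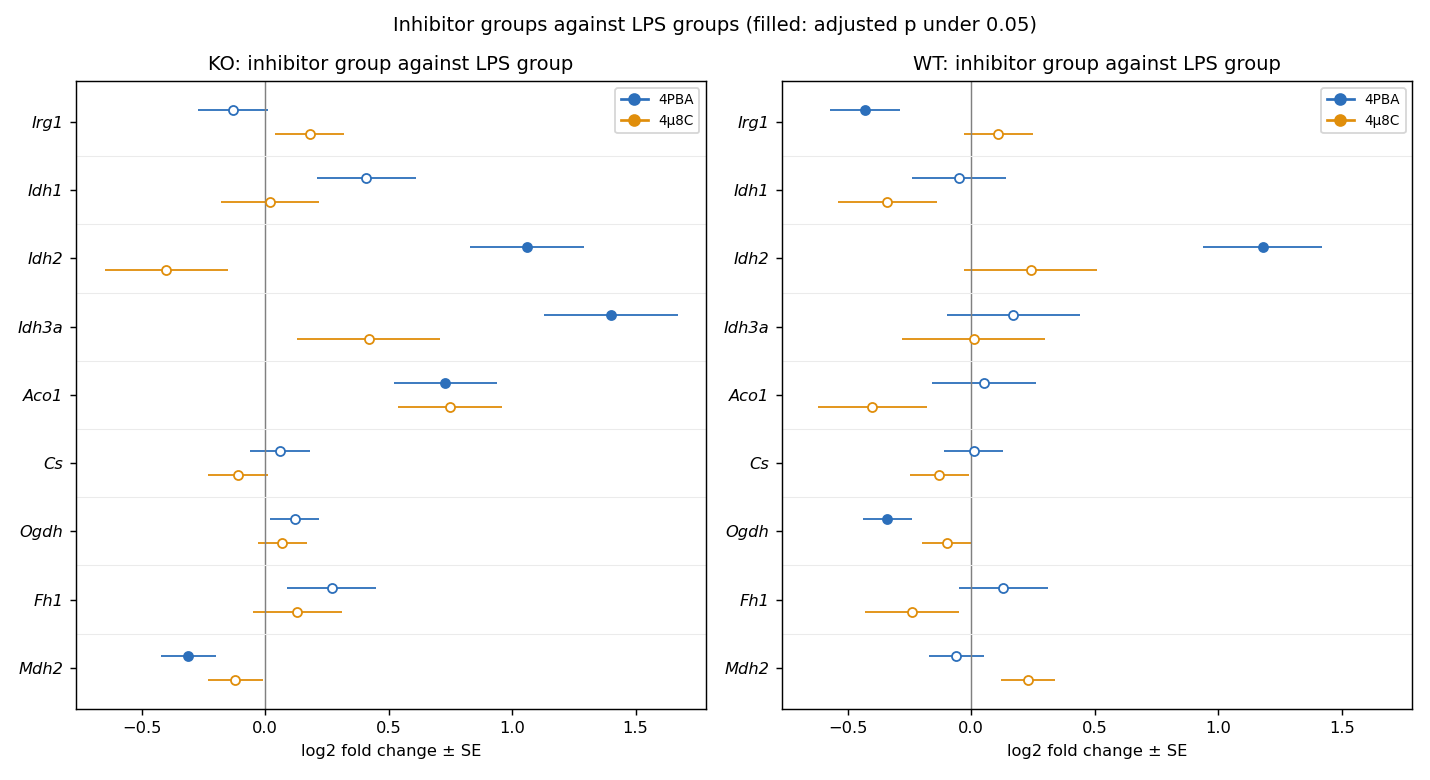
Log2 fold change (± SE) of each gene in 4PBA and 4µ8C cells against LPS cells of the same genotype, KO on the left and WT on the right, filled where the adjusted p was under 0.05. No 4µ8C point is filled, and Idh2 with 4PBA is filled in both panels at 1.06 in KO and 1.18 in WT cells.

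By CPM, rapamycin cells had the highest mean of Idh1, Idh2, Cs and Fh1 and the lowest mean of Irg1, Ogdh and Mdh2 among the 9 groups. By TPM the lowest mean was in KO LPS for Ogdh and in WT LPS for Mdh2, while Idh1, Idh2, Cs, Fh1 and Irg1 kept their places. Against WT LPS, 8 of 9 genes were called, 6 higher and 2 lower, where 56.3% of all genes were called. All 10 genes of the stimulation list were also lower than in WT LPS. The labels do not state whether rapamycin cells received LPS, so rapamycin and a lack of LPS cannot be told apart in this comparison. Idh1 was 11-fold higher (3.46 ± 0.19, adjusted p = 1.8e-20), Idh2 3.76-fold higher (1.91 ± 0.23, adjusted p = 7e-10) and Fh1 2.60-fold higher (1.38 ± 0.17, adjusted p = 5.9e-10), while Irg1 was 9.29-fold lower (-3.22 ± 0.15, adjusted p = 4.2e-24, edgeR). The rise of Aco1 (0.51 ± 0.20, adjusted p = 0.03) was lost in 5 of 10 fits that left out 1 library (WT LPS replicates 2, 3 and 5, rapamycin replicates 3 and 4) and with the code term (adjusted p = 0.067). Idh3a (0.71 ± 0.26, adjusted p = 0.018) lost its call without WT LPS replicate 2 (adjusted p = 0.06), and Cs (0.33 ± 0.12, adjusted p = 0.014) with the code term (adjusted p = 0.065). Against WT medium, Mdh2 fell by 0.32 ± 0.11 (adjusted p = 0.027), a call lost without WT medium replicate 1 or rapamycin replicates 1 or 2 (adjusted p 0.13, 0.082 and 0.076). Idh1 differed from WT medium by 0.23 ± 0.17 (adjusted p = 0.37) and Idh2 by 0.28 ± 0.20 (adjusted p = 0.35, edgeR), neither called. Summed neutrophil markers were 654 to 1018 CPM with rapamycin and 105 to 548 CPM elsewhere, 7 of 8 listed genes having a row. Mmp8 made up most of this, while S100a9, Retnlg, Camp and Ltf were at a median of 0. Cxcr2 went the other way, at 10.9 to 20.5 CPM with rapamycin, against 30.5 to 65.1 CPM in WT medium. In WT LPS Cxcr2 was at 60.4 to 76.2 CPM. S100a8 had 6.69 to 12.8 CPM with rapamycin, overlapping the 9.1 to 10.8 CPM in WT medium. Summed dendritic cell markers were lower with rapamycin, at 1769 to 2725 CPM. The sums were 3139 to 5370 CPM in WT LPS and 2950 to 3739 CPM in WT medium. All 10 genes had a row, with Flt3 and Cd209a at or near 0. The genes of this list did not all go the same way. H2-Ab1 was at 552 to 909 CPM with rapamycin, against 1269 to 2029 CPM in WT LPS and 980 to 1521 CPM in WT medium. Itgax was at 89.6 to 268 CPM, against 50.6 to 154 CPM in WT LPS and 131 to 302 CPM in WT medium. Ccr7 was at 36.5 to 416 CPM, against 471 to 708 CPM in WT LPS and 212 to 298 CPM in WT medium. Summed mast cell and basophil markers were 6.08 to 17.3 CPM with rapamycin, against 1.12 to 3.14 CPM in WT LPS and 1.18 to 5.38 CPM in WT medium. Kit made up nearly all of that sum, and Mcpt8 was at 0 in every library. The part of these transcripts in the rapamycin values was not tested.

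KO and WT cells were compared for the 9 genes under the same treatment, although Bag6 itself was not called lower in KO cells under any treatment. In medium 0 rose and 2 fell, Idh1 and Fh1, where 8.92% of all genes were called, and 3 genes had no overlap between genotypes, where 9.06% of all genes tested had none. With LPS 0 of 9 were called (6.06% of all genes called, 3 of 9 at an unadjusted p under 0.05), with 4µ8C 0 (0.943% called, 1 of 9 unadjusted) and with 4PBA 0 (0.496% called, 2 of 9 unadjusted). DESeq2 called 1 gene with LPS and 0 with 4µ8C or 4PBA. The median log2 difference of the 9 genes was -0.23 in medium, -0.16 with LPS, -0.08 with 4µ8C and 0.02 with 4PBA, against -0.03, -0.02, 0.00 and 0.00 over all genes tested.

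In medium, Idh1 averaged 188 ± 53.7 CPM in KO and 335 ± 67.2 CPM in WT cells (SD, n = 5 each), and the highest KO library, at 228 CPM, lay below the lowest WT library, at 248 CPM. The log2 fold change was -0.83 ± 0.17 (adjusted p = 0.00047, edgeR), and -0.67 to -0.92 when each library was left out in turn. With the code term it was -0.73 with adjusted p = 0.14, and as every KO medium code was inner and every WT medium code outer, no value within 1 code class exists. The lowest KO library, replicate 1 at 99.8 CPM, was also the KO medium library with the most Irg1 and with the highest mean log2 CPM of the stimulation list, 8.09, against 6.92 to 7.54 in the other KO and 6.42 to 7.48 in the WT medium libraries. Of that list, Il1b and Ptgs2 were called higher in KO medium cells, and the part of this in the Idh1 difference was not tested. With LPS the Idh1 difference was -0.51 ± 0.20 (adjusted p = 0.13), with 4µ8C -0.16 ± 0.21 and with 4PBA -0.05 ± 0.19.

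Fh1 averaged 21.1 ± 4.51 CPM in KO and 28.9 ± 2.32 CPM in WT medium cells, with no overlap (-0.47 ± 0.16, adjusted p = 0.0496). That call was lost in 8 of 10 fits that left out 1 library, all except those without KO medium replicates 2 or 5, with adjusted p up to 0.18, and with the code term (-0.26, adjusted p = 0.77). Cs had 179, 192, 194, 170 and 174 CPM in KO medium, against 229, 215, 222, 199 and 199 CPM in WT medium, with no overlap (-0.23 ± 0.12, adjusted p = 0.25). Idh2 averaged 18.5 ± 2.70 CPM in KO and 28.0 ± 5.87 CPM in WT medium cells (-0.60 ± 0.21, adjusted p = 0.057). Irg1 averaged 3275 ± 572 CPM in KO and 3024 ± 804 CPM in WT medium cells (0.11 ± 0.14, adjusted p = 0.68), and its KO against WT difference was -0.14 ± 0.14 with LPS, -0.07 ± 0.14 with 4µ8C and 0.16 ± 0.14 with 4PBA. With LPS, Aco1 averaged 16.2 ± 3.61 CPM in KO and 25.9 ± 5.60 CPM in WT cells, with no overlap (-0.66 ± 0.22, adjusted p = 0.059 in edgeR and 0.044 in DESeq2). With 4PBA, where all codes of both genotypes were inner, Ogdh averaged 129 ± 11.4 CPM in KO and 104 ± 11.4 CPM in WT cells (0.30 ± 0.10, adjusted p = 0.19). Code order still parted the genotypes there, with C2 to C6 in WT and G4 to G8 in KO cells.

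**Figure D4:**
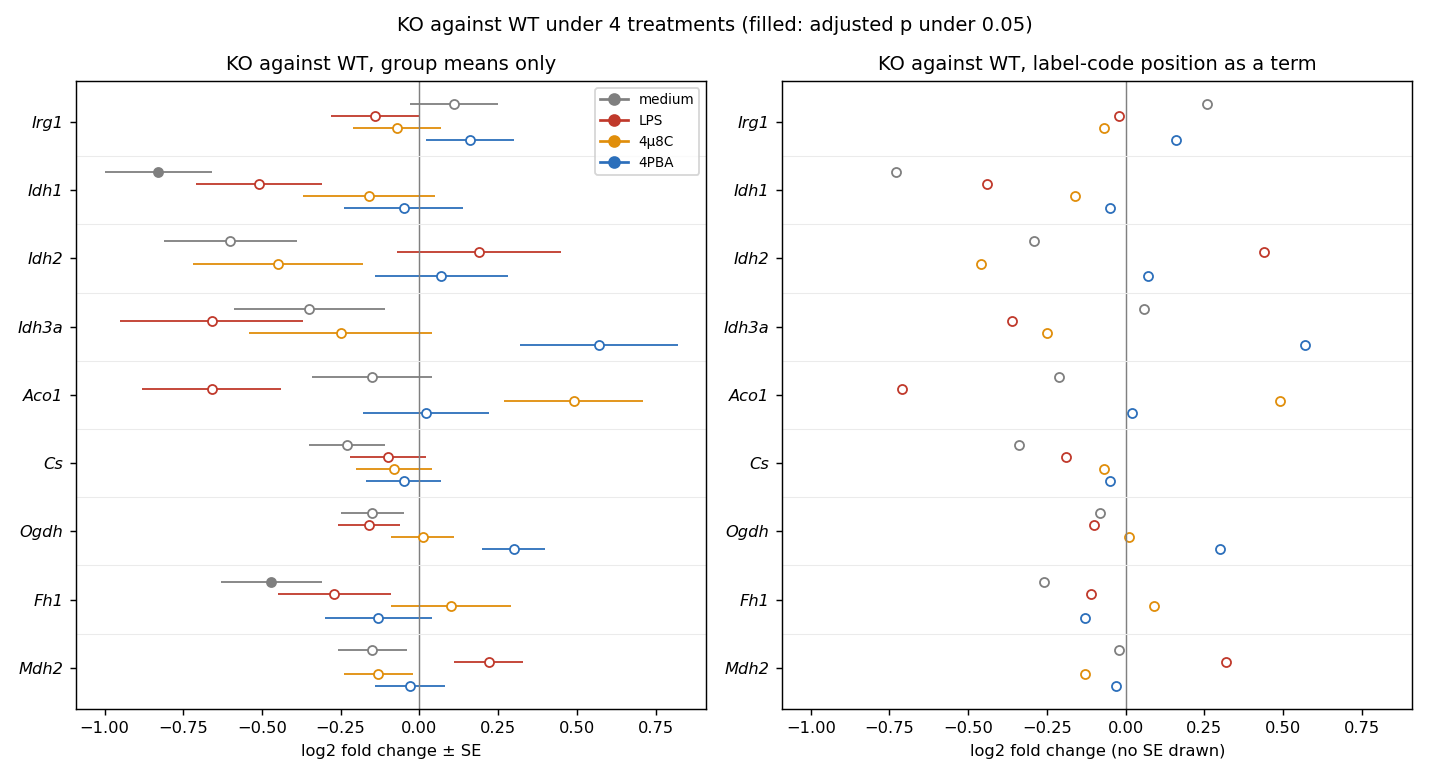
Log2 fold change of each gene in KO against WT cells under 4 treatments, on the left from group means alone (± SE) and on the right with the outer or inner label code as a term (no SE drawn), filled where the adjusted p was under 0.05. Idh1 and Fh1 in medium are the 2 filled points on the left, at -0.83 and -0.47, and no point is filled on the right.

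Whether the response to a treatment differed between genotypes was tested as an interaction, the KO change minus the WT change. For LPS 0 of 9 genes were called (0.00972% of all genes called, 2 of 9 at an unadjusted p under 0.05), for 4µ8C 0 (1.79% called, 3 of 9 unadjusted) and for 4PBA 0 (4.73% called, 4 of 9 unadjusted). DESeq2 called 0, 0 and 1. For LPS the interaction of Irg1 was -0.25 ± 0.19 and that of Idh1 0.32 ± 0.26. The values nearest to a call were those of Ogdh and Idh1 for 4PBA, 0.45 ± 0.14 (adjusted p = 0.0508) and 0.78 ± 0.26 (adjusted p = 0.073). With the replicate number as a block both were called, at 0.45 (adjusted p = 0.0452) and 0.77 (adjusted p = 0.024). With the code term they were 0.38 (adjusted p = 0.48) and 0.68 (adjusted p = 0.52).

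The remaining enzymes of the cycle, 13 genes all tested, were lower rather than higher with LPS where they passed the test, apart from Dld. In KO LPS cells 0 rose and 5 fell, a share close to the 35.2% of all genes called, and in WT LPS cells 1 rose and 7 fell, where 40.1% of all genes were called. Idh3b and Idh3g, the partner subunits of Idh3a, fell by 0.37 ± 0.13 and 0.55 ± 0.17 on the log2 scale in KO cells and by 0.72 ± 0.13 and 0.92 ± 0.17 in WT cells. Suclg1, a subunit of succinyl-CoA ligase, fell by 0.53 ± 0.14 in KO and by 0.51 ± 0.13 in WT cells, and Mdh1, the cytosolic malate dehydrogenase, by 0.38 ± 0.15 and 0.61 ± 0.14. The riser was Dld, a shared subunit of several dehydrogenase complexes, at 0.54 ± 0.14 in WT cells. Of the 4 succinate dehydrogenase genes, Sdhb passed in WT LPS cells (-0.33 ± 0.12, adjusted p = 0.026) and had -0.16 ± 0.12 in KO LPS cells (adjusted p = 0.32). The medians over the list were -0.18 in KO LPS and -0.33 in WT LPS cells, against -0.08 and -0.07 over all genes tested. Against LPS, Idh3g, Mdh1, Suclg1 and Suclg2 were higher with 4PBA in both genotypes, with Mdh1 at 0.71 ± 0.15 in KO and 0.81 ± 0.15 in WT cells, and Sdhd was lower in both. In all, 4 rose and 2 fell in KO cells (24.4% of all genes called) and 4 rose and 4 fell in WT cells (27% called).

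Of 17 genes for entry into the cycle and its refilling, 16 were tested. With LPS 1 rose and 6 fell in KO cells, where 35.2% of all genes were called, and 2 rose and 5 fell in WT cells, a share close to the 40.1% of all genes called. The list medians were -0.37 and -0.38, against -0.08 and -0.07 over all genes tested. Pdk3, a kinase that inhibits pyruvate dehydrogenase, rose by 0.87 ± 0.17 in KO and 0.46 ± 0.17 in WT cells. Pdp1, the phosphatase that reactivates it, fell by 1.18 ± 0.27 and 1.41 ± 0.28, Pdha1, a subunit of the enzyme itself, by 0.66 ± 0.15 and 0.60 ± 0.15, and Got2, the mitochondrial aspartate aminotransferase, by 0.81 ± 0.14 in both. With rapamycin 2 rose and 2 fell against WT medium, close to the 23.2% of all genes called, among them Glud1, glutamate dehydrogenase, at 1.79 ± 0.24 and Pdk3 at -1.04 ± 0.17.

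Of 8 genes for mitochondrial carriers and citrate use, 2 rose and 1 fell in KO LPS, and 1 rose and 3 fell in WT LPS cells, with list medians of 0.18 and -0.07. The KO share lay close to the 35.2% of all genes called, and the WT share was somewhat above the 40.1%. Slc25a1, the citrate carrier, rose by 0.58 ± 0.13 in KO and 0.56 ± 0.13 in WT cells, and Acss2, which makes acetyl-CoA from acetate, fell by 1.48 ± 0.24 and 1.32 ± 0.23. Mean TPM of Slc25a1 was 124 in KO LPS against 111 in KO medium, and 121 in WT LPS against 98.9 in WT medium. Mpc1, the other gene that rose in KO LPS, had a lower mean TPM there, 294 against 311 in KO medium. The size of these rises and, for Mpc1, the direction thus depended on the scale. Acly, ATP citrate lyase, had -0.57 ± 0.24 in KO (adjusted p = 0.063) and -0.61 ± 0.24 in WT cells (adjusted p = 0.044). Of 6 genes tied to Aco1 through iron regulation, 2 rose and 1 fell with LPS in each genotype, with list medians of 0.04 in KO and 0.16 in WT cells, where 35.2% and 40.1% of all genes were called. Fbxl5, which targets iron regulatory protein 2 for degradation, rose by 1.04 ± 0.16 in KO and 1.26 ± 0.16 in WT cells, and Fth1, the ferritin heavy chain, by 0.60 ± 0.12 and 0.29 ± 0.12. The gene that fell in KO cells was Tfrc, the transferrin receptor, at -0.82 ± 0.32 (adjusted p = 0.042), which had -0.30 ± 0.33 in WT cells (adjusted p = 0.5). The gene that fell in WT cells was Ftl1, the ferritin light chain, at -0.59 ± 0.13 (adjusted p = 0.00036), which had -0.23 ± 0.13 in KO cells (adjusted p = 0.18). Both ferritin genes have near-identical copies in the mouse genome, so their counts are uncertain.

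Over the 9 group means of log2 CPM, Irg1 ran against Fh1 (Pearson's r = -0.97), Idh1 (-0.92) and Cs (-0.90), and Idh1 ran with Fh1 (0.95). These are descriptions over 9 points that share treatments, and over the deviations of the 45 libraries from their group means the same pairs gave -0.12, -0.41, -0.13 and 0.25. Of 7637 genes with at least 10 CPM in their highest group, the 9 members included, the non-members most like Irg1 were Slc15a3 (r = 0.998), Oasl1 (0.997) and BC094916 (0.997). Those most like Idh1 were Nfam1 (0.992), Tmem154 (0.991) and Haus8 (0.990). Eif2d (0.987) was the nearest to Idh2, Tmem126b (0.972) to Idh3a, Fbxo22 (0.965) to Aco1, Hpcal1 (0.990) to Cs, Pira4 (0.967) to Ogdh, Lztr1 (0.996) to Fh1 and Ly6i (0.960) to Mdh2.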

How the data were processed

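Gene-level files of 45 libraries were used, each listing the same 23420 genes. Expected counts are reads per gene as RSEM estimated them, which the authors deposited unnormalized per the file headers, and 6.53% to 10.54% of those in a library were not whole numbers. TPM values were scaled for length and depth by the authors' RSEM run, per the file headers. The submitters' processing notes name bcl2fastq and RSEM without versions. Aligner, genome build and annotation were not given in the sources used here. The labels' protocols state day 9 cultures and 1 µg of total RNA per library.

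Expected counts were rounded, and 10287 genes kept by filterByExpr were tested with edgeR 4.0.16 (limma 3.58.1, R 4.3.3) by a two-sided robust quasi-likelihood test, TMM scaling, with all 45 libraries and 36 residual degrees of freedom in 1 fit. Called means a Benjamini-Hochberg adjusted p under 0.05 over all genes tested in a comparison, and rose and fell are used of called genes. Log2 fold changes carry standard errors (SE) derived from the F statistic. CPM were scaled with TMM factors, and log2 CPM used a prior count of 2. The SE reflects counting noise and replicate spread together, and no other interval is given. The 5 libraries of a group are biological replicates per the labels, with no statement on animals.

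The members and lists were chosen with earlier results of these data known. Named are the members, Bag6, genes of the lists and, per member, the 3 most similar genes over group means. Some genes counted in the lists are not reported here by name. The main fit held group means only, with no block for replicate number, so its calls take no account of pairing. Same-numbered replicates were judged to be paired where all 5 correlations of deviations from group means, over 2000 genes, exceeded 0.1. This held for LPS, 4µ8C and 4PBA against KO medium, for WT 4PBA against WT medium, for 4PBA against LPS in both genotypes and for KO 4µ8C against KO LPS (0.19 to 0.70). The alternatives were DESeq2 1.42.0, RLE scaling, no filter, a replicate block, a term for the label code (outer or inner), the compared groups only, each library left out and KO replicate 4 left out. On simulated counts for WT LPS against WT medium, over 10287 genes, the test called 25.4% of the 67 with a planted 1.5-fold change, 64.2% of the 67 at 2-fold, 89.4% of the 66 at 4-fold and 4 of the 10087 left unchanged. Only 200 genes were changed there, whereas 40.1% of genes were called between the real groups. The adjustment depends on that share, so these percentages do not give the power in the data.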

Additional observations from a re-analysis of the deposited data

Results flagged for a closer look

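In 81 sets of 5 libraries (9 genes in 9 groups), 4 had a highest library standing apart from the rest, where chance alone gives about 1 in 20. WT 4µ8C replicate 4, the shallowest library, did so for 3 genes. It held 12861 CPM of Irg1, against 8194 to 8857 CPM in the other 4 replicates of its group. Its Idh2 was 23.1 CPM and its Mdh2 287 CPM, each the highest of 5. WT medium replicate 1 held 224 CPM of Mdh2, against 169 to 182 CPM in the other 4. Without WT 4µ8C replicate 4, every one of the 9 genes kept its call or lack of a call in WT 4µ8C against WT medium.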

How the results depend on the processing

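No called value of the 9 genes changed direction in any alternative run, none of which used TPM. Of 171 values (9 genes in 19 comparisons), those that kept their side of the threshold were 168 in DESeq2, 169 with RLE scaling, 165 without a filter, 162 with the code term, 163 with the compared groups only, 168 without KO replicate 4 and 158 with the replicate block. Among uncalled values, the sign changed for 11 with the code term and for 3 or 4 in the others, except that none did without a filter, and for 84 of 1980 values in fits that left out 1 library. For KO against WT medium, where 2 genes were called, RLE scaling gave 1, no filter 1, no KO replicate 4 gave 1 and the code term 0, and leaving out 1 library gave 1 to 2. For WT 4PBA against WT LPS the code term gave 1 in place of 3. For the 4PBA interaction the replicate block gave 2 and DESeq2 1 in place of 0, and leaving out 1 library gave 0 to 2. For KO against WT with LPS, DESeq2 gave 1 in place of 0, and leaving out 1 library 0 to 2. Where replicate numbers do not pair the libraries, the replicate block moved Idh2 in KO against WT medium to -0.59 (adjusted p = 0.036), Fh1 to -0.46 (0.065), Cs in WT 4µ8C against medium to -0.38 (0.073), and Mdh2 in rapamycin to -0.28 against medium (0.09) and -0.28 against WT LPS (0.017). It changed no other call beyond those given with the results. Without a filter, Mdh2 lost its call in KO LPS (adjusted p = 0.11), KO 4PBA against KO LPS (0.12) and rapamycin against medium (0.11), as did Fh1 in KO 4PBA against medium (0.11) and Ogdh in WT 4PBA against WT LPS (0.064). The cause was not tested. Low counts limit the precision for Idh3a, Idh2, Fh1 and Aco1, at under 50 CPM in every library, and for Idh1, under 50 CPM in every LPS, 4µ8C and 4PBA library.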
